A study of Mus musculus with 2 samples.

Results

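The genes described here encode proteins of the pre-mRNA splicing machinery and of the hnRNP family. They were taken by symbol: Hnrnp, Sf3a or Sf3b with a digit, U2af, Prpf with a digit, or Snrp at the start, no pseudogene suffix, and at least 1 transcript typed protein_coding. The rule gave 57 of the 55536 annotated genes, among 22028 annotated as protein-coding. It used no measured value. Snrpert matched the prefix but has no protein_coding transcript and was left out.

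Splicing removes introns from nascent transcripts in the nucleus. The 5′ splice site is first read by the U1 snRNP, a small RNA with its proteins, while U2AF2 binds the polypyrimidine tract and U2AF1 the AG at the 3′ end of the intron. The U2 snRNP, with its SF3a and SF3b subunits, then holds the branch point, and the U4/U6.U5 tri-snRNP brings the Prp proteins to the catalytic core. The Sm proteins form a ring around most of these small RNAs, and hnRNP proteins coat nascent RNA and favour or block nearby splice sites.

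Total RNA depleted of ribosomal RNA was sequenced in 2 libraries, both of the same group. The RNA came from the nucleoplasmic fraction (called nuclear elsewhere in the labels) of C57BL/6J mouse bone marrow-derived macrophages, phagocytes grown from marrow. The cells had 100 ng/ml lipid A, the TLR4-activating part of lipopolysaccharide, for 12 h, then 12 h of washout, then 100 ng/ml lipid A again for 90 min. The starting amount was 500 ng of RNA for replicate 2 and 1 µg for replicate 1. No untreated group was analysed here, so no comparison of treatments was made, and no p-value is given. The labels number the libraries as biological replicates but give both the same donor entry and no separate cultures, so the spread between them may be technical. Age and sex are not given.

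The gene counts summed to 17789543 in replicate 2 and 29400104 in replicate 1. All 10 macrophage markers checked were at or over 1 TPM in both libraries, where TPM (transcripts per 1000000) is a level per transcript length scaled to the library, and summed to 2298 TPM in replicate 2 and 1665 TPM in replicate 1. Of the neutrophil (7), T cell (4), B cell (4), erythroid (4), fibroblast (5) and mast cell (4) markers, none reached 1 TPM in both. Their highest summed level in any one library was 1.55 TPM, for the erythroid list in replicate 2.

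Most of the splicing genes were present in the nucleoplasmic RNA. In all, 54 of 57 were at or over 1 TPM in both libraries (94.7%), against 38.6% of all protein-coding genes, and 41 were at or over 5 TPM. Replicate 2 gave them a median level of 11.2 TPM, and replicate 1 a median of 11.4 TPM (mean 11.3 ± 0.141, SD, n = 2), against 0.25 and 0.18 TPM over all protein-coding genes. The 3 below 1 TPM were Sf3b5, Snrpf and Snrpn. In bulk RNA, a lower level from fewer cells and one from less RNA per cell cannot be told apart. Levels differed by class: 19 of the 20 hnRNP genes were at or over 5 TPM in both libraries, against 2 of the 8 Sm core genes. Over all protein-coding genes 4747 of 22028 were, a share near that of the Sm core genes.

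**Figure D1:**
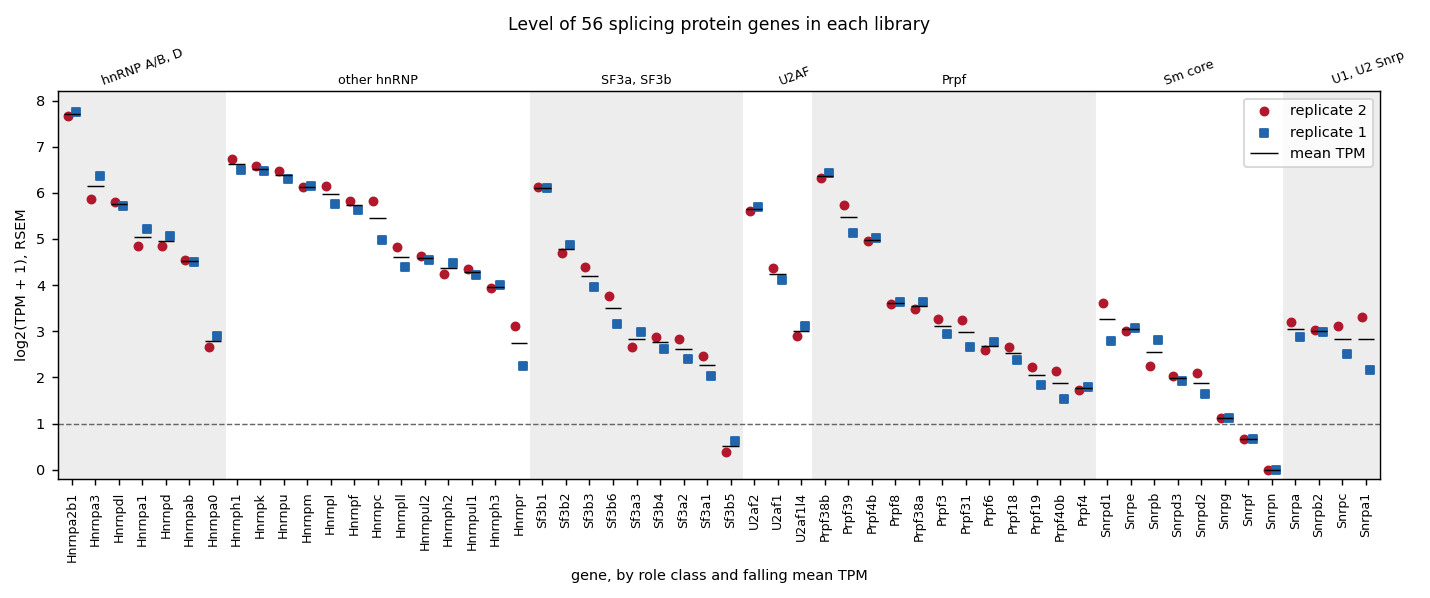
Level of 56 of the 57 genes as log2(TPM + 1), by role class and, within a class, by falling mean TPM. Red circles are replicate 2, blue squares replicate 1, bars the log2 of the mean TPM plus 1, and the dashed line marks 1 TPM. Hnrnpa2b1 is highest at 201 and 215 TPM in replicates 2 and 1, the Sm core genes are low, and Snrpn is listed at 0.

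Among the A/B and D type hnRNPs (7 genes, all at or over 1 TPM), Hnrnpa2b1 (chr6:51460932-51469894, minus strand, mm10) stood first of all 57 genes. It had 201 TPM in replicate 2 and 215 TPM in replicate 1 (mean 208 ± 10.3, SD, n = 2). Hnrnpa3, a close relative, had 57.5 and 81.3 TPM in replicates 2 and 1, and Hnrnpdl, which resembles Hnrnpd, had 54.5 and 51.8 TPM. Hnrnpa1, which binds splicing silencers and favours exon skipping, had 27.7 and 36.4 TPM. Hnrnpd, also called AUF1 and known for binding AU-rich elements, had 27.7 and 32.3 TPM. The lowest were Hnrnpab at 22.5 and 21.8 TPM and Hnrnpa0 at 5.32 and 6.48 TPM. The neighbours Hnrnpa1 and Hnrnpd were nearly equal in replicate 2, and their ranges over the libraries overlapped. Hnrnpa2b1 was above every other gene of the list in both libraries.

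Copies limit these values. Of the 57 genes, 20 had at least 1 pseudogene with 95% identity over 200 bases or more. Copies of all other protein-coding genes were not searched, so this count has no background beside it. Hnrnpa3 had 35 such pseudogenes. Those 35 summed to 86.7 TPM in replicate 2 and 33.1 TPM in replicate 1, against 57.5 and 81.3 TPM for Hnrnpa3 itself. By RSEM the copies were thus higher in replicate 2 and Hnrnpa3 itself lower. By kallisto both were higher in replicate 2, with 71.7 and 35.5 TPM for the copies and 24.95 and 19.2 TPM for Hnrnpa3 in replicates 2 and 1. How reads were divided among them was not tested. Hnrnpa1 had 9 such pseudogenes, which summed to 6.88 and 3.84 TPM.

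The other hnRNP genes (13, all at or over 1 TPM) had class medians of 55.3 and 30.4 TPM in replicates 2 and 1, against 27.7 and 36.4 TPM for the A/B and D type. Hnrnph1 (chr11:50376990-50386528), which binds G tracts, had 106 and 89.7 TPM in replicates 2 and 1. Hnrnpk, a KH-domain protein that binds C-rich sequence, had 94.7 and 87.8 TPM. Hnrnpu, the scaffold attachment factor SAF-A, had 87.6 and 77.8 TPM. Hnrnph1 was above Hnrnpk in each library, although the ranges of these neighbours over the libraries overlapped. Both libraries of Hnrnpk lay just above those of Hnrnpu. Hnrnpc, which binds uridine tracts, differed more between libraries in TPM, at 55.3 TPM in replicate 2, against 30.4 TPM in replicate 1. Its expected counts were 1979 and 2722 in replicates 2 and 1, a log2 ratio of 0.10 with the count scaling used below. In the middle of the class, Hnrnpm had 69.1 and 69.4 TPM in replicates 2 and 1, Hnrnpl 70.4 and 52.8 TPM, and Hnrnpf, of the H/F type, 55.8 and 48.5 TPM. Hnrnpll had 27.2 and 19.9 TPM. The hnRNP U-like genes Hnrnpul2 and Hnrnpul1 had 23.8 and 22.2 TPM, and 19.5 and 17.7 TPM, and the X-linked Hnrnph2 had 18.02 and 21.2 TPM. At the low end were Hnrnph3, of the H/F type, at 14.2 and 15.0 TPM, and Hnrnpr, related to Syncrip, at 7.63 and 3.75 TPM.

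The SF3 genes encode the U2 snRNP subunits that grip the branch-point region. Sf3b1 (chr1:54985169-55027481), the large scaffold that encloses the branch-point helix, had 68.4 TPM in replicate 2 and 68.0 TPM in replicate 1 (mean 68.2 ± 0.276, SD, n = 2). Its partners were lower: Sf3b2 had 25.0 and 28.3 TPM, Sf3b3 had 20.0 and 14.7 TPM, and Sf3b6, the p14 protein at the branch point, had 12.7 and 7.87 TPM. The 3 SF3a genes lay between 3.06 TPM (Sf3a1, replicate 1) and 6.89 TPM (Sf3a3, replicate 1). Sf3b4, an RNA-binding SF3b subunit, had 6.40 and 5.13 TPM. Sf3b5, the small SF3b subunit, had 0.30 and 0.55 TPM. The subunits of this complex spanned a wide range of nucleoplasmic RNA, with Sf3b1 above and Sf3b5 below all others in both libraries.

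Of the U2AF genes, U2af2 (chr7:5062143-5079938), the large subunit that binds the polypyrimidine tract, had 47.7 and 50.6 TPM in replicates 2 and 1. U2af1 (chr17:31647081-31658892), the small subunit that reads the AG, had 19.8 and 16.2 TPM. The related U2af1l4 had 6.51 and 7.60 TPM. The order U2af2, U2af1, U2af1l4 was the same in both libraries, with no overlap.

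Of the 13 Prp genes, all were at or over 1 TPM. Prpf38b, a PRP38-like protein, had 79.1 and 84.7 TPM in replicates 2 and 1. Prpf39, a U1 snRNP-associated protein, had 52.5 and 34.1 TPM, and Prpf4b, a kinase that acts on tri-snRNP proteins, had 30.0 and 31.3 TPM. Prpf8, the scaffold of the catalytic core, had 11.0 and 11.4 TPM. Prpf38a, of the B complex, had 10.1 and 11.4 TPM. The U4/U6 proteins Prpf3 and Prpf31 had 8.61 and 6.71 TPM, and 8.46 and 5.28 TPM. Prpf6, which bridges the tri-snRNP, had 5.07 and 5.77 TPM, the second-step factor Prpf18 5.33 and 4.22 TPM, and the ubiquitin ligase Prpf19 3.71 and 2.56 TPM. The lowest were Prpf40b, a U1-associated protein, at 3.44 and 1.89 TPM and Prpf4, of the U4/U6 snRNP, at 2.33 and 2.47 TPM. Proteins of the U1, U4/U6 and U5 particles were interleaved in this order.

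The Sm core genes were the lowest class, with medians of 3.18 and 2.45 TPM in replicates 2 and 1. Snrpd1 (SmD1) had 11.2 and 5.94 TPM in replicates 2 and 1, Snrpe (SmE) 7.04 and 7.46 TPM, and Snrpb (SmB/B′) 3.74 and 6.06 TPM. Snrpd3 (SmD3) had 3.11 and 2.78 TPM, Snrpd2 (SmD2) 3.25 and 2.14 TPM, and Snrpg (SmG) 1.17 and 1.18 TPM. Snrpf (SmF) had 0.59 and 0.58 TPM, from 10 and 18 expected counts, so its level is imprecise. Snrpn (SmN), a paralogue of SmB known from neurons, was listed at 0 in both libraries by RSEM and had 0.0844 and 0.0276 TPM by kallisto. Among the U1 and U2 specific proteins, Snrpa (the A protein of U1) had 8.18 and 6.36 TPM, Snrpb2 (the B″ protein of U2) 7.11 and 6.90 TPM, Snrpc (the C protein of U1) 7.63 and 4.72 TPM, and Snrpa1 (the A′ protein of U2) 8.86 and 3.45 TPM. The order of these 4 differed between the libraries and their ranges overlapped, so they were not ranked.

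Much of the signal of these genes lay on transcripts that are not typed protein_coding. The annotation sorts each gene's isoforms into types: protein_coding, retained_intron (an intron or a part of one is left in the exon), nonsense_mediated_decay (an early stop that marks the mRNA for degradation) and processed_transcript (no open reading frame). The 57 genes have 435 transcripts, of which 196 are protein_coding, 134 retained_intron, 51 nonsense_mediated_decay and 54 processed_transcript. Of all their summed TPM, protein_coding transcripts held 41.5% in replicate 2 and 47.4% in replicate 1, against 80.1% and 73.6% over all protein-coding genes. Retained_intron transcripts held 40.3% and 33.1% of it, against 14.7% and 19.1%. Without Hnrnpa2b1, the gene of highest TPM, the retained_intron share was 34.96% and 29.3% (left out after the data had been seen). Weighted by expected count, it was 27.2% and 22.7% over the 57 genes, against 15.5% and 14.6% over all protein-coding genes. These shares state to which annotated isoform reads were assigned. Unspliced nuclear RNA can be assigned only to an annotated isoform, so they are no measure of how often an intron is kept in mature mRNA.

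Per gene, the retained_intron share was taken over the 42 genes with such a transcript and at least 1 TPM in both libraries. It exceeded 50% in both libraries in 13 of 42 genes (31.0%), against 15.2% of 5519 protein-coding genes. The median share was 38.7% in replicate 2 and 37.5% in replicate 1 (mean 38.1% ± 0.867, SD, n = 2), against 32.6% and 28.8% over all protein-coding genes. The median of the list lay above that of all protein-coding genes in both libraries. The median gene had 2 retained_intron transcripts among 7, both in the list and over all protein-coding genes. Among genes with at least 3 retained_intron transcripts, a limit chosen after the data had been seen, 10 of 18 exceeded 50% (55.6%), against 28.1% of 2248 protein-coding genes.

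**Figure D2:**
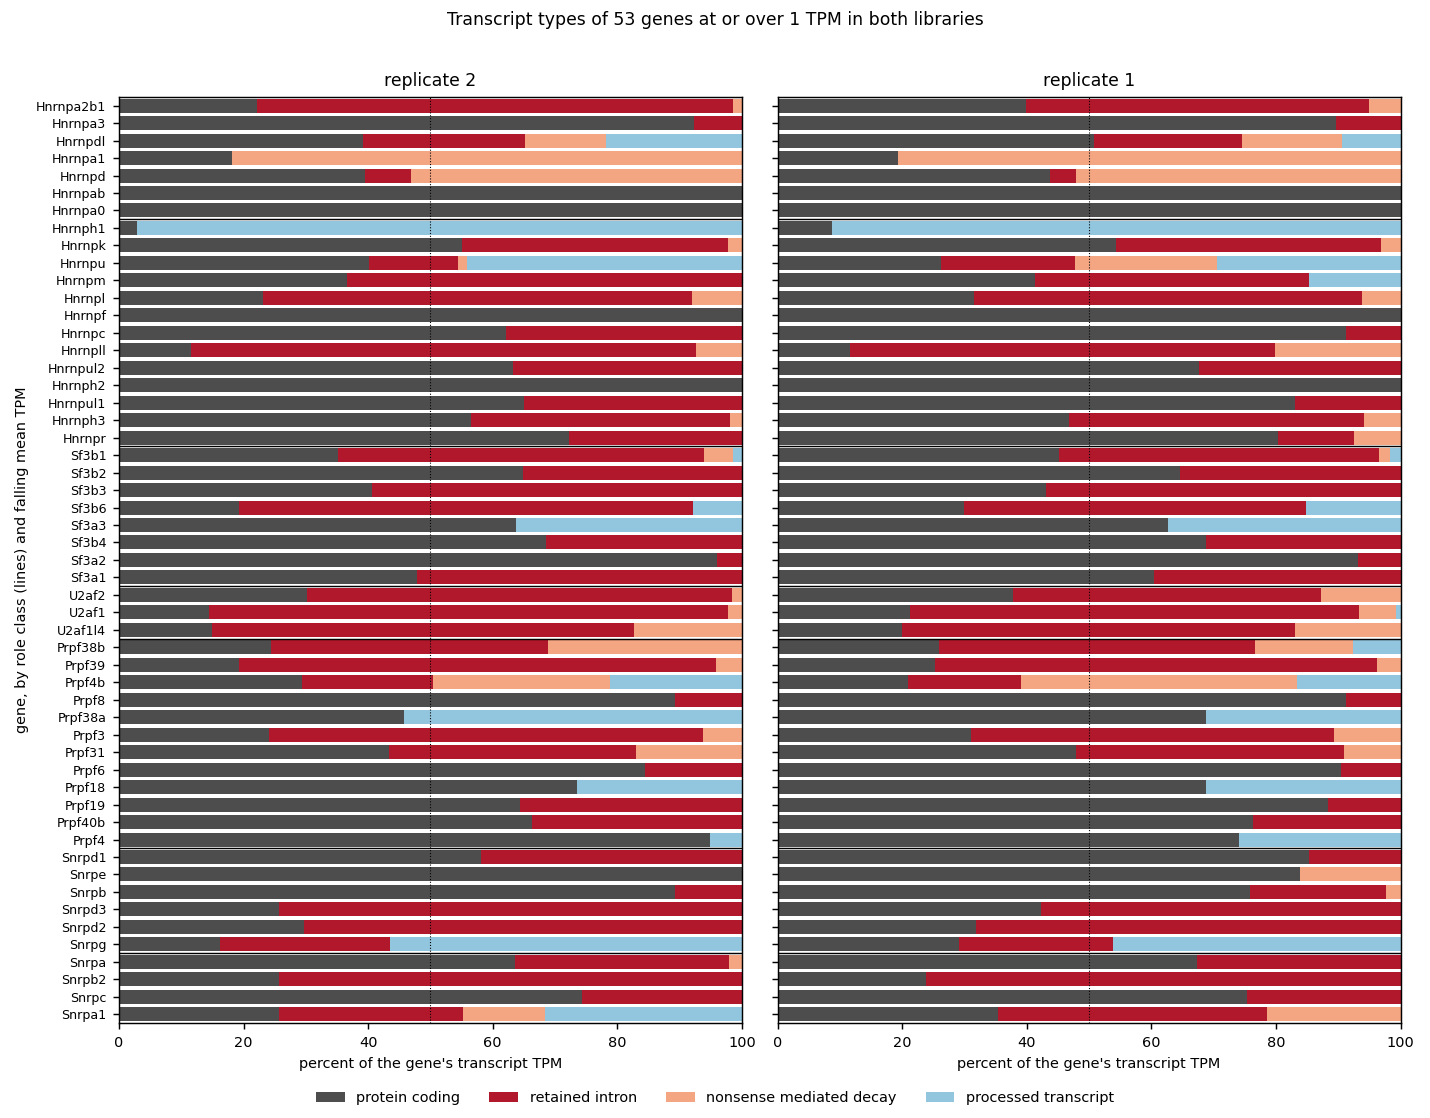
Share of each gene's transcript TPM on each annotated type in replicate 2 (left) and replicate 1 (right), for 53 of the 54 genes at or over 1 TPM in both. Rows run by role class and falling mean TPM, and the dotted line marks 50%. Hnrnpll, U2af1 and Snrpb2 are mostly retained_intron in both libraries, Hnrnpa1 mostly nonsense_mediated_decay and Hnrnph1 mostly processed_transcript.

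Among the U2AF genes, only 3 in number, the share was highest as a class, with a median of 68.3% in replicate 2 and 63.0% in replicate 1. U2af1 carried 83.4% and 72.0% of its TPM on retained_intron transcripts in replicates 2 and 1 (mean 77.7% ± 8.02, SD, n = 2), and U2af1-204 alone held 53.4% and 35.3%. U2af1l4 carried 67.7% and 63.0%, but from few reads, at 61 and 168 expected counts. It also shares 1086 exon bases with Gm49396 on the same strand. U2af2 carried 68.3% and 49.5%, so it passed the 50% line in replicate 2 only. The protein_coding transcripts of the 3 genes held between 14.4% (U2af1, replicate 2) and 37.8% (U2af2, replicate 1) of TPM. By kallisto the retained_intron shares in replicates 2 and 1 were 58.1% and 62.9% in U2af1 and 63.7% and 53.5% in U2af1l4. In U2af2 they were 78.1% and 59.1%.

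Within SF3, Sf3b6 carried 72.9% and 54.9% on retained_intron transcripts in replicates 2 and 1, Sf3b3 59.4% and 56.9%, and Sf3b1 58.7% and 51.4%. Sf3b1-203, a retained_intron transcript, had 26.2 and 22.4 TPM, against 24.1 and 30.7 TPM for the coding Sf3b1-201. The 2 were thus of like level, and their order differed between the libraries. By contrast Sf3a2 carried 96.1% and 93.2% on protein_coding transcripts, among the 3 highest protein_coding shares of genes that have another type, with Hnrnpa3 (92.3% and 89.6%) and Snrpe (100% and 83.8%).

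The hnRNP genes were divided. Hnrnpll and Hnrnpl, which bind CA repeats, carried 81.1% and 68.3%, and 69.0% and 62.2%, on retained_intron transcripts in replicates 2 and 1. Hnrnpa2b1 carried 76.5% and 55.1%, of which Hnrnpa2b1-208 held 64.0 and 52.6 TPM and Hnrnpa2b1-211 held 65.9 and 40.7 TPM. At the other end, 7 genes of the list have protein_coding transcripts alone, among them Hnrnpab, Hnrnpa0, Hnrnpf and Hnrnph2. Of the 42 genes, Hnrnpc had the largest difference between libraries, with 37.8% in replicate 2 and 8.71% in replicate 1. Its Hnrnpc-212 had 18.7 TPM in replicate 2 and 1.21 TPM in replicate 1, from 189 and 23 expected counts.

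Of the Prp genes, Prpf39 carried 76.5% and 70.9% and Prpf3, of the U4/U6 snRNP, 69.8% and 58.3% on retained_intron transcripts in replicates 2 and 1. In the snRNP proteins, Snrpb2 carried 74.3% and 76.2%, Snrpd3 74.3% and 57.8% and Snrpd2 70.4% and 68.2%. These last genes had few reads: Snrpd2 had 90 and 112 expected counts and Snrpd3 had 85 and 103. The share was higher in replicate 2 than in replicate 1 in 32 of the 42 genes (76.2%) and in 61.0% of the protein-coding genes with such a transcript. In 17 of the 42 the libraries differed by over 10 percentage points. No such count over all protein-coding genes is given, so it is not put forward as a trait of the list.

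The other types stood out in single genes. Hnrnpa1 carried 81.8% and 80.7% of its TPM on nonsense_mediated_decay transcripts in replicates 2 and 1, and Hnrnpd 53.2% and 52.1%. They were the 2 of 25 genes over 50% in both libraries, against 2.00% of 2694 protein-coding genes, a count chosen after its values were seen. In Hnrnpa1 the type held although its isoforms did not: Hnrnpa1-204 had 17.2 TPM in replicate 2 and 13.1 TPM in replicate 1, Hnrnpa1-203 had 5.55 and 16.2 TPM, and the coding Hnrnpa1-202 had 5.04 and 7.01 TPM. The 9 pseudogenes of Hnrnpa1 summed to 6.88 and 3.84 TPM in replicates 2 and 1. How reads were divided between them and the isoforms was not tested. Hnrnph1 carried 97.1% and 91.3% on processed_transcript isoforms, led by Hnrnph1-212 at 38.4 and 17.1 TPM. By kallisto the nonsense_mediated_decay share was 69.2% and 69.3% in Hnrnpa1 but 46.6% and 34.3% in Hnrnpd, below 50% in both libraries, and the processed_transcript share of Hnrnph1 was 96.5% and 92.2%. By total TPM Hnrnph1 ranked 2 of the 57 genes, and by protein_coding TPM it ranked 30. Prpf4b carried 28.5% and 44.2% on nonsense_mediated_decay transcripts.

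Over all types other than protein_coding, 24 of 50 genes (48.0%) had more than 50% of their TPM outside protein_coding transcripts in both libraries, against 23.4% of 7115 protein-coding genes. Genes of this kind whose share is not given above include Hnrnpm, which binds GU-rich sequence, with 63.4% in replicate 2 and 58.6% in replicate 1. Hnrnpu had 59.9% and 73.8%, Prpf38b 75.6% and 74.2%, Prpf31, of the U4/U6 snRNP, 56.6% and 52.1%, Snrpa1 74.4% and 64.6%, and Snrpg 83.8% and 70.9%. In the last, the count was 14 in replicate 2 and 30 in replicate 1. By class, the 24 genes were 3 of 5 A/B and D type hnRNPs, 5 of 11 other hnRNPs, 3 of 8 SF3 genes, 3 of 3 U2AF genes, 5 of 13 Prp genes, 3 of 6 Sm core genes and 2 of 4 U1 and U2 specific genes. The transcript of highest TPM was a retained_intron transcript in both libraries in 12 of 42 genes (28.6%), against 12.8% of 5519 protein-coding genes, a rule added after the data had been seen.

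The second deposited quantification gave like shares. Retained_intron shares exceeded 50% in both libraries by RSEM and by kallisto in 11 of 40 genes (27.5%), against 12.5% of 5143 protein-coding genes, also a rule added later. Of the 13 genes over 50% by RSEM, Sf3b6 (mean 40.2%) and Snrpd2 (mean 48.1%) were below it by kallisto. By kallisto alone the count was 12 of 40 (30.0%), against 24.0% of 5417 protein-coding genes, so the list was then nearer to the background. Weighting transcripts by expected count in place of TPM, which gives short isoforms less weight, 10 of 42 (23.8%) exceeded 50%, against 12.8%. Sf3b1 (37.6%), Sf3b3 (39.2%) and Snrpd3 (32.6%) were then below 50%. The line at 75% was passed by 0 of 42 genes in both libraries, against 2.16% of protein-coding genes.

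**Figure D3:**
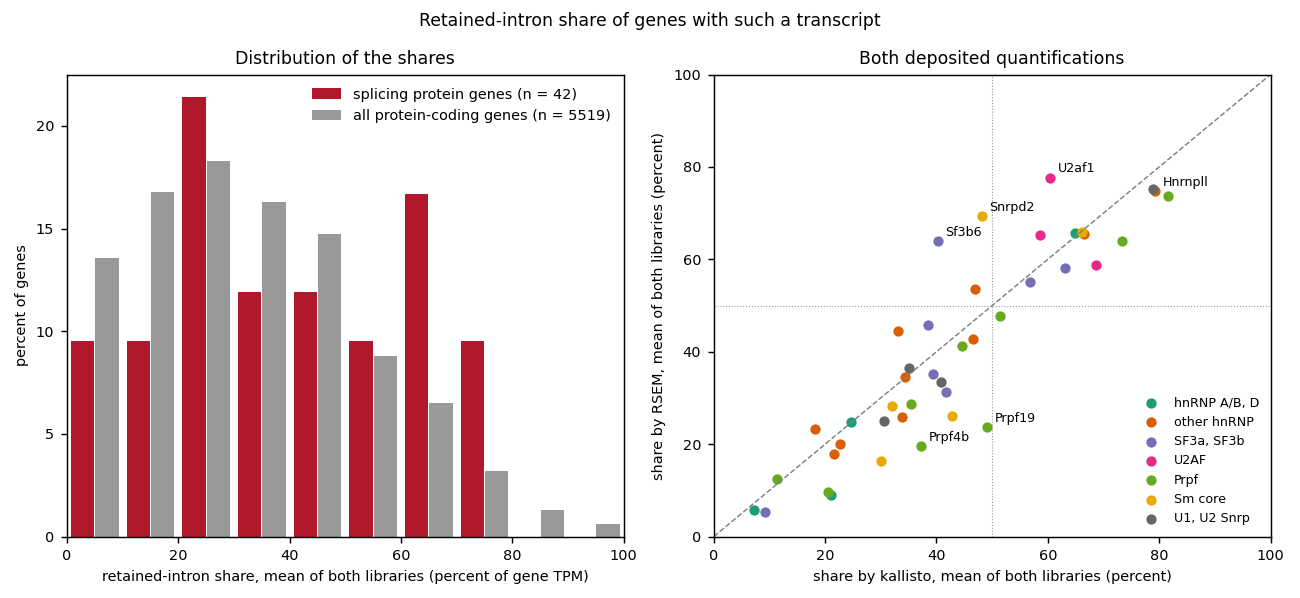
Retained-intron share, as the mean of both libraries in percent of gene TPM. Left, percent of genes per 10-point bin for the 42 splicing genes (red) and 5519 protein-coding genes (grey), with 16.7% against 6.50% in the bin from 60 to 70%. Right, share by RSEM against share by kallisto for each of the 42 genes, coloured by class, with the line of equality dashed and 50% dotted, where Sf3b6 and Snrpd2 lie above 50% by RSEM alone.

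The introns that these isoforms keep could be read from the annotated transcripts where a whole intron of a protein_coding transcript, of at least 50 bases, lies inside a retained_intron exon. There were 55 such introns in 23 of the genes, with a median length of 285 bases, and 54 of them (98.2%) had GT-AG ends. Over all protein-coding genes at or over 1 TPM there were 6060 in 2644 genes, with a median length of 280 bases and 98.4% GT-AG. The introns of the splicing genes were lower in GC (median 43.8%, against 50.9%). Their median pyrimidine share in the 17 bases that end 3 bases before the 3′ end was 82.4%, against 76.5%. Overlapping introns that share a 3′ site were each counted, and several such introns of U2af1l4 stood at 82.4%. The pyrimidine difference is thus not put forward as a trait of the list. All these values are descriptions of the annotation, not of reads across the intron.

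The splice sites of 1 kept intron in each of 5 genes, picked after their values were seen, are shown because they are the letters that the proteins of this list read. In each 5′ site, 3 exon bases precede the intron, and in each 3′ site, 20 intron bases precede the exon, with capitals at GT and AG. Sequences are from the GENCODE M21 transcripts on mm10. The introns are chr1:55014563-55016375 (minus strand, 1813 bases, Sf3b1-203), chr7:5068797-5069443 (plus, 647 bases, U2af2-206), chr6:51463255-51463410 (minus, 156 bases, Hnrnpa2b1-208), chr17:80034248-80035330 (minus, 1083 bases, Hnrnpll-202) and chr12:65053452-65053970 (plus, 519 bases, Prpf39-204).
Sf3b1-203 5′ site: atgGTaatt
Sf3b1-203 3′ site: gttgctgttcttttctgcAGgag
U2af2-206 5′ site: caaGTaagg
U2af2-206 3′ site: gtctcctattccctctgcAGgag
Hnrnpa2b1-208 5′ site: tggGTaagt
Hnrnpa2b1-208 3′ site: ctttacttctgttgaaacAGgct
Hnrnpll-202 5′ site: ttgGTaatt
Hnrnpll-202 3′ site: ttttcttttctaatcttcAGtgt
Prpf39-204 5′ site: aagGTaacc
Prpf39-204 3′ site: tttttttcttttttttcaAGcta

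All 5 have GT and AG ends, and they differ in the tract before the AG. The pyrimidine share of the 17-base window was 100% in Prpf39-204, 88.2% in Hnrnpll-202, 82.4% in U2af2-206, 76.5% in Sf3b1-203 and 64.7% in Hnrnpa2b1-208. The isoforms that keep these introns held 38.2% and 32.9% of their gene's TPM in replicates 2 and 1 for Sf3b1-203, and 30.4% and 21.7% for U2af2-206. Hnrnpa2b1-208 held 31.9% and 24.4%, Hnrnpll-202 18.6% and 14.2%, and Prpf39-204 14.8% and 15.2%. The 1 intron without GT-AG ends, of 83 bases at chr7:5079501-5079583, is also in U2af2-206 and has GG-AG ends.

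Most of the kept introns that lie between coding exons would end the reading frame. Of 46 kept introns that lie between coding exons, 43 (93.5%) hold a stop codon in the frame of the upstream exon, against 89.3% of 5558 over all protein-coding genes, so the share is near the background. The first stop ended at a median of 44 bases into the intron, against 38. In Sf3b1-203 it ended at base 143, in Prpf39-204 at base 78 and in Hnrnpll-202 at base 4. The introns whose sites are shown for U2af2-206 and Hnrnpa2b1-208 do not lie between coding exons and were not scored for a stop. Short whole introns are shown for Prpf38b-207 (chr3:108907848-108907931, minus strand, 84 bases) and Hnrnpa2b1-213 (chr6:51467296-51467390, minus strand, 95 bases), with capitals at both ends and at the first stop in frame.
Prpf38b-207: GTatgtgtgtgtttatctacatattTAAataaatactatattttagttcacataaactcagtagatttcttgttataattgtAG
Hnrnpa2b1-213: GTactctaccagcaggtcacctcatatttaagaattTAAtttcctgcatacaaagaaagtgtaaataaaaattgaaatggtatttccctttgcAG

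The stop ended at base 28 in the Prpf38b intron and at base 39 in the Hnrnpa2b1 intron. Prpf38b-207 had 16.9 TPM in replicate 2 and 14.5 TPM in replicate 1, and Hnrnpa2b1-213 had 16.2 and 15.6 TPM. In RSEM TPM both isoforms differed little between the libraries, whereas Hnrnpa2b1-211, described above, differed more. By kallisto Hnrnpa2b1-213 had 10.4 and 6.59 TPM and Hnrnpa2b1-211 had 33.8 and 16.1 TPM in replicates 2 and 1.

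Few of the genes differed by over 2-fold between the libraries. Ratios, given as the log2 of replicate 2 over replicate 1, came from TMM-scaled counts of the 56 genes whose mean count reached 10. A ratio above 1 was found for 1 gene, against 3.74% of 11368 protein-coding genes, and a ratio below -1 for 1 gene, against 5.01%. Ratios beyond 1 in size thus came to 2 of 56, against 8.75%. The median ratio was -0.21, against -0.05 over all protein-coding genes. The ratio was above 0 in 17 genes (30.4%), against 46.0%, and below 0 in 39. Scaling by library totals gave 26 above and 30 below 0, and it set the median of all genes at 0.18, against 0.01 by TMM. Counts from kallisto gave 8 above and 48 below 0. The median was then -0.34, against -0.20 over the same 11368 protein-coding genes. By TPM, 33 genes were higher and 23 lower in replicate 2, so the direction of the list depends on the scale. The TPM of all protein-coding genes summed to 303496 in replicate 2 and 204010 in replicate 1. Shares of all protein-coding genes above 0 are not given for these other scales.

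The gene above 1 was Hnrnpr, with 916 expected counts in replicate 2 and 625 in replicate 1, and a log2 ratio of 1.11 (95% counting interval 0.96 to 1.26). The gene below -1 was Sf3b5, with 28 and 97 expected counts and a log2 ratio of -1.22 (-1.90 to -0.62). By kallisto counts the ratios were 0.74 and -0.21, so neither passed 1. The counting interval lay above 0 in 11 genes, below 0 in 28 and included 0 in 17. No such counts over all protein-coding genes are given, so they are not put forward as a trait of the list. These exact binomial intervals cover counting error alone. Hnrnpa2b1, for instance, had 6423 and 13553 expected counts and a log2 ratio of -0.52, although it had 201 and 215 TPM.

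**Figure D4:**
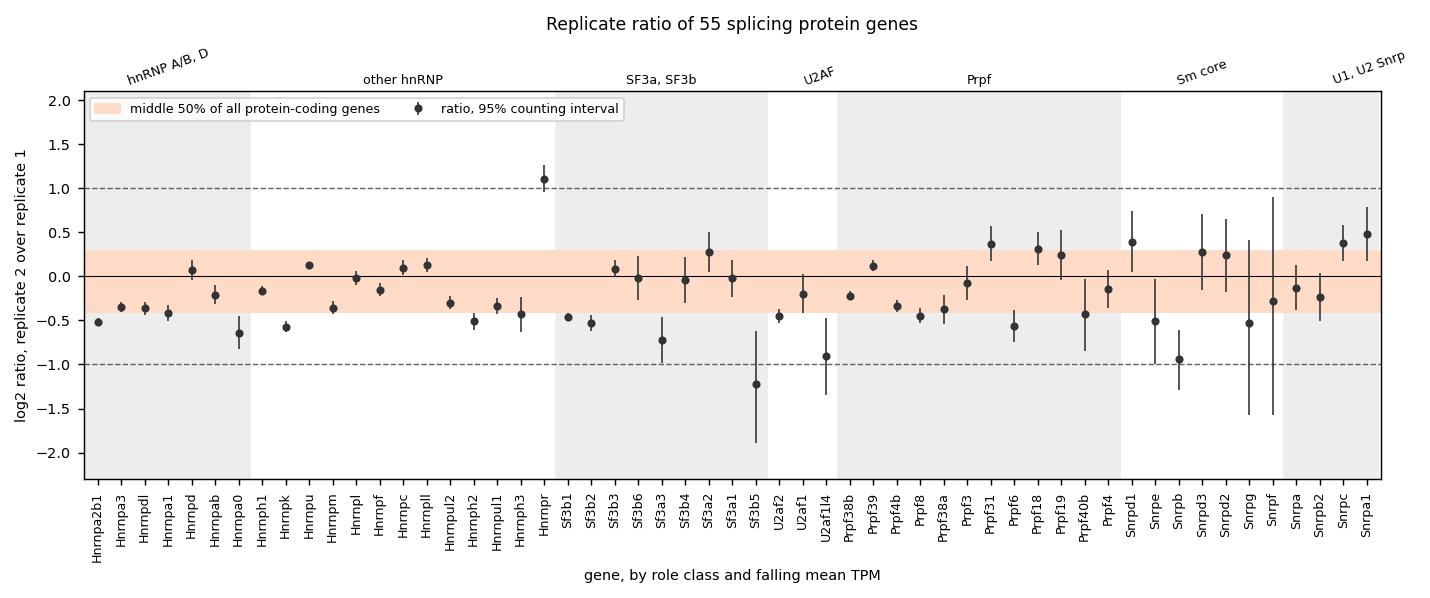
Log2 ratio of replicate 2 over replicate 1 from TMM-scaled counts for 55 of the 56 genes, by role class and falling mean TPM, with exact 95% counting intervals. The pink band is the middle 50% of all protein-coding genes, and dashed lines mark -1 and 1. Hnrnpr lies above 1 and Sf3b5 below -1, and Snrpf and Snrpg have the widest intervals.

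Shared positions bear on single values. In 24 of the 57 genes an exon shares bases with another gene, in 20 of them with one on the other strand, and whether the counting used strand is not stated. Such overlaps were not counted over all protein-coding genes, so these counts have no background beside them. Hnrnpu shares 804 exon bases with Cox20, which had 27.1 TPM in replicate 2 and 4.49 TPM in replicate 1, so reads of the pair cannot be told apart without strand. Hnrnpr shares 715 with the lincRNA Gm27022, which was listed at 0 in both. Of the 7 small RNA genes inside 6 members, all were listed at 0 by RSEM, among them Snord111 and Gm22193 in exons of Sf3b3. By kallisto 6 of the 7 were above 0 in both libraries, the highest being Mir7-1 in Hnrnpk, with 115 and 14.2 TPM in replicates 2 and 1. As TPM is a level per transcript length, such a value in a short gene can rest on few reads. The kallisto counts of these genes are not given. The quantifications differed by over 2-fold in mean TPM for 4 of the 54 genes at or over 1 TPM (Hnrnpa2b1, Hnrnpa3, Hnrnpdl and Hnrnph2), against 12.8% of 8512 such protein-coding genes. They also did for Snrpn, which RSEM lists at 0. The median fold of RSEM over kallisto was 1.60 over the members at or over 1 TPM, and 1.48 over all such protein-coding genes.

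Genes that act at the same steps under other symbols were mostly present as well. These lists were also drawn up with earlier results of these data known. Of 12 partners at the U2 snRNP and 3′ splice site, 12 were at or over 1 TPM in both libraries, against 38.6% of protein-coding genes, with 3 of 10 over 50% retained_intron, against 15.2%. Rbm39, a U2AF2-related protein, had 227 and 268 TPM in replicates 2 and 1, Ddx39b, the helicase UAP56, 73.3 and 80.0 TPM, and Htatsf1, a U2-associated protein, 3.02 and 2.45 TPM. Of 15 partners in U1, U5 and the tri-snRNP, 14 were at or over 1 TPM and 4 of 11 were over 50% retained_intron, against the same 38.6% and 15.2%. Luc7l2, a U1-associated protein, had 185 and 116 TPM, Snrnp70 (U1-70K) 44.3 and 47.3 TPM, and Txnl4a, of U5, 0.50 and 0.87 TPM.

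The later steps had medians of 6.55 and 6.34 TPM in replicates 2 and 1. All 16 partners of the Prp19 complex and the catalytic steps were at or over 1 TPM, led by mean TPM by Bud31 at 16.2 and 16.8 TPM and Rbm22 at 15.6 and 16.6 TPM in replicates 2 and 1, both proteins of the activated spliceosome. The lowest was Ctnnbl1, a partner of Cdc5l, at 1.94 and 1.84 TPM. Of 18 genes of the LSm ring and Sm assembly, 12 were at or over 1 TPM. Highest by mean TPM were Lsm8, of the ring on U6, at 6.04 and 5.24 TPM and Strap, of the SMN complex, at 5.14 and 4.86 TPM. Gemin8, of the same complex, was lowest by mean TPM, at 0.40 and 0.07 TPM. Of 18 hnRNP and related proteins with other symbols, 16 were. They were led by Ewsr1, of the FET family, at 97.7 and 105 TPM, and Pcbp3, a poly(C)-binding protein, was lowest at 0.10 and 0.05 TPM. The median was 21.9 and 17.6 TPM for these hnRNP proteins and 2.77 and 1.53 TPM for the LSm and assembly genes. Over 50% retained_intron were 3 of 13, 2 of 11 and 2 of 12 genes of these lists, against 15.2% of protein-coding genes, so the last 2 shares are near the background.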

How the data were processed

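Ribosomal RNA-depleted total RNA of nucleoplasmic RNA was quantified by the authors in 2 ways, 1 library per table, on mm10 with GENCODE M21 per the deposited descriptions. Per the file headers, the first set has the columns of RSEM: an expected count per gene and transcript, in which shared reads are split by a model, TPM per gene and transcript, and the percent of a gene's TPM on each transcript. The second deposited set has the columns of kallisto, with an estimated count and TPM per transcript, which were summed per gene. The sources used here do not give the aligner, software versions or strand setting. Spike-in, phiX and tRNA rows (0.272% of counts in replicate 2 and 0.766% in replicate 1) were left out of library sizes.

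Members, role classes, partner lists and rules were chosen with earlier results of these data known. Shares are sums of transcript TPM by annotated type, over genes with at least 1 TPM in both libraries. List medians are medians of log2(TPM + 1), printed as TPM. For ratios, expected counts were rounded, scaled by TMM factors of edgeR 4.0.16 (1.06 for replicate 2 and 0.944 for replicate 1) and given a prior count of 0.5. Intervals are exact Clopper-Pearson 95% intervals. They and the floors of 3 counts (0.169 and 0.102 counts per 1000000 in replicates 2 and 1) cover counting error only. The ratio step was tested on simulated data. Pseudogene copies were found with blastn 2.17.0, and DESeq2 1.42.0 gave alternative size factors. Other tools were Python 3.11.15, pandas 2.3.3, SciPy 1.17.1, matplotlib 3.10.9 and R 4.3.3. Of the 80 listed partner symbols, 1 matched no gene.

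Named genes were, per class, the 3 of highest and 2 of lowest mean TPM. To these came all genes over 50% retained_intron or over 50% outside protein_coding transcripts in both libraries, the 3 of highest protein_coding share, ratios beyond 1, quantifications over 2-fold apart and genes listed at 0. Other genes named in passing were chosen after their values were seen. Of partner lists, the 2 highest and the lowest were named. Some genes that these rules select are counted in the totals but are not reported here by name or drawn gene by gene. Alternatives were the other quantification, other scalings and thresholds, count weights and leaving out each replicate.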

Additional observations from a re-analysis of the deposited data

How the results depend on the processing

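All values rest on 2 libraries of 1 group, and ratios of the 5 genes with a mean count under 100, among them the Sm genes Snrpe, Snrpf and Snrpg, are imprecise. No paired analysis was possible because there is 1 group and no test between groups. Of the results listed, the median level of 11.3 TPM was 7.18 by kallisto, 39.4 after rescaling over coding and long non-coding genes, and 13.2 over genes at or over 1 TPM. The median retained_intron share of 38.1% was 40.7% by kallisto, 42.4% with a minimum of 5 TPM and 24.2% with expected counts as weight. Over all protein-coding genes the median of 30.7% was 36.0%, 31.6% and 18.1% in the same order. The retained_intron share of their summed TPM, on average 36.67% over the libraries, was 24.97% with expected counts as weight. The 13 genes over 50% became 0 with a line at 75%. The 2 genes with a ratio beyond 1 became 1 with a mean count of at least 100, 0 by kallisto and 6 with a line at 1.5-fold. The cause of these shifts was not tested. Leaving out each replicate in turn gave 54 genes at or over 1 TPM both times, a median of 11.2 to 11.4 TPM, 14 to 16 genes over 50% and a median share of 37.5 to 38.7%. It left no ratio to compute. The counts from 1 library alone and at the 1.5-fold line have no share over all protein-coding genes beside them. They do not show how far the list differs from that background. The median log2 ratio of -0.21 was -0.05 with library totals and -0.34 by kallisto. The other values of these results moved by less than the spread set for them, or for counts by at most 1.5 times, under the alternatives run, and none changed sign. For single named genes, 19 stayed and 20 moved.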
